A study of Mus musculus with 2 samples.

Results

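Splicing of 5 genes of mitochondrial structure and protein import, glycolysis and redox control was compared between wild-type mouse embryonic fibroblasts and fibroblasts deficient in SRSF10, a splicing regulator related to the SR proteins. The members were every event of the authors' deposited splicing table whose gene was Immt, Tomm40, Tomm5, Pkm (written PKM there) or Txnrd1. Each gene had 1 event, so the members were 5 of 100 events and 5 of the 96 genes of the table. The series title places the study in adipocyte differentiation, for which embryonic fibroblasts serve as a starting cell. The wild-type group and the SRSF10-deficient group, labelled KO, were 1 poly(A)-selected paired-end library each, so no value below has a replicate check. The sources used here do not give how the deficient cells were made, their passage or any treatment. The table holds splicing events and no expression levels, so neither the loss of SRSF10 nor the fibroblast identity could be checked.

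A cassette exon is kept or skipped as a unit, a retained intron stays in the messenger RNA, and a mutually exclusive pair offers a choice between neighbouring exons. SR and related proteins commonly act through purine-rich stretches of exons. Immt encodes mitofilin, a core subunit of the MICOS complex that shapes mitochondrial cristae. Tomm40 encodes the pore of the translocase of the outer membrane (TOM), through which most nuclear-encoded mitochondrial proteins enter, and Tomm5 a small subunit of the same complex. Pkm encodes the muscle type of pyruvate kinase, which makes pyruvate and ATP in the last step of glycolysis and exists in an M1 and an M2 form. Txnrd1 encodes cytosolic thioredoxin reductase, a selenoprotein that keeps thioredoxin reduced with electrons from NADPH.

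In the deficient library the Immt exon was included more often (19% to 56%) and the Tomm40 intron was retained more often (26% to 54%). The Tomm5 exon was included less often (42% to 20%), and the M1 exon of Pkm lost ground to the M2 exon (38% to 17%). The first exons of Txnrd1 stood apart in another way: reads that fit only its exon-inclusion isoform numbered 474 in wild type and 9 in the deficient library.

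The exons behind the coding changes are printed below as GENCODE M21 transcripts hold them (GRCm38), because the isoforms differ in the protein sequence that these exons encode. The Immt exon (chr6:71853173-71853268, plus strand) has its runs of at least 6 purines in capitals. In the Tomm5 exon (chr4:45106839-45106888, minus strand), capitals mark bases in 16-base words that occur in transcripts of at least 10 other genes. In Pkm exon 9 (chr9:59675029-59675195, plus strand) and exon 10 (chr9:59675568-59675734), capitals mark the bases at which these exons differ.
Immt exon: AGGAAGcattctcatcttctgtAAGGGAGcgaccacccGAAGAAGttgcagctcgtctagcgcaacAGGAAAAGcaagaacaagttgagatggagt
Tomm5 exon: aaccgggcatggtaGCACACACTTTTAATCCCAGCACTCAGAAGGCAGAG
Pkm exon 9: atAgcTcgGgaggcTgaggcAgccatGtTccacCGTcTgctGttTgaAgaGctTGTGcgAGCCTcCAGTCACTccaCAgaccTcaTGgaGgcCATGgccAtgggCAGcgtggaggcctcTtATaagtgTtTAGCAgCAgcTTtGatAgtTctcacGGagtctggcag
Pkm exon 10: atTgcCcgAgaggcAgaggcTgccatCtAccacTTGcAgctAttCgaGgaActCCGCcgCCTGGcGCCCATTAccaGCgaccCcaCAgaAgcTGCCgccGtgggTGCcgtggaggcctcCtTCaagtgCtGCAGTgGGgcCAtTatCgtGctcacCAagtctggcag

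**Figure D1:**
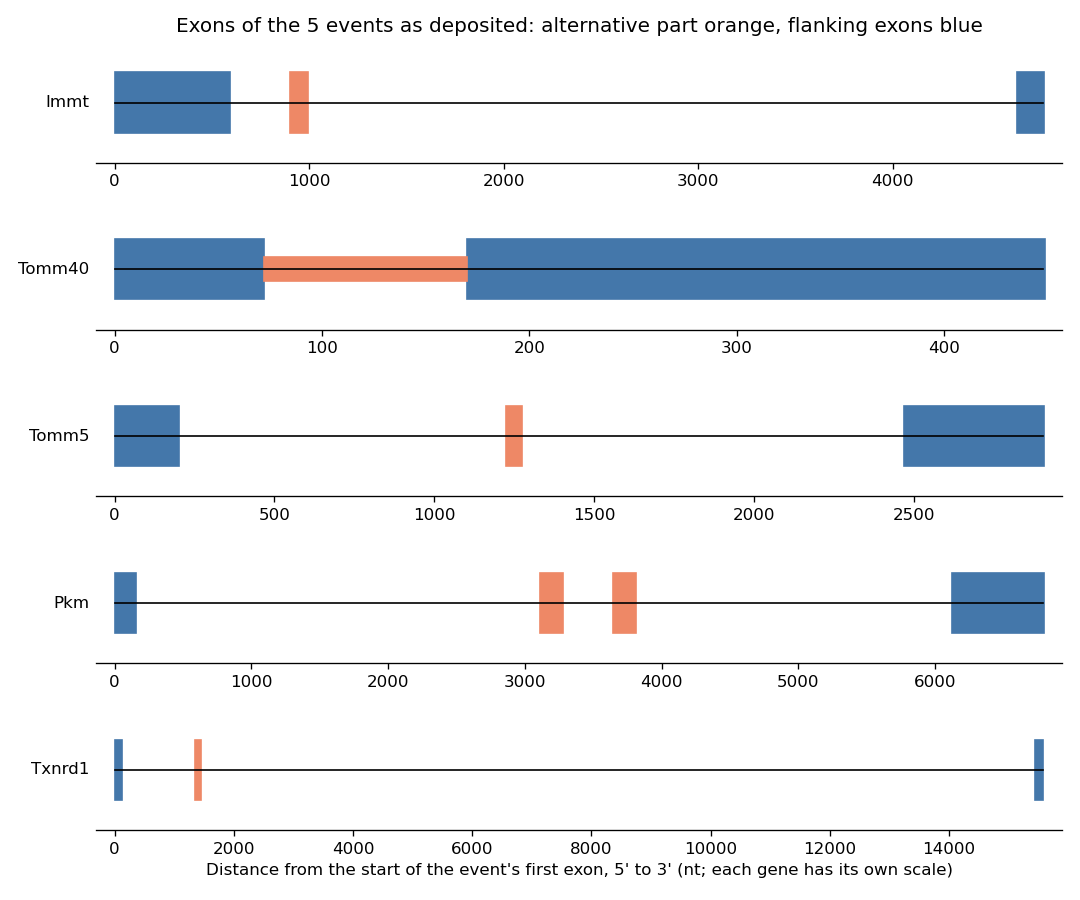
Exons of the 5 events as the deposited table defines them, drawn to scale along each gene from 5′ to 3′ against the distance in nucleotides from the start of the event. Orange marks the alternative part and blue the flanking exons. The alternative parts range from the 50-nucleotide Tomm5 exon to the 167-nucleotide exon 9 of Pkm.

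All 5 members had been listed by the authors with a difference in inclusion between these same libraries, and every event of the table differed by at least 20 percentage points. The deposited values therefore describe the members and support no difference of their own. Inclusion is the authors' posterior mean, with a deposited interval whose level the sources used here do not state. It rose in 2 members and fell in 3, beside 55 rises and 45 falls in the table. The median absolute difference was 28 points in the members and 33.5 points over all events. Reads that fit only 1 isoform were compared with Fisher's exact test (two-sided), with p-values adjusted over all 100 events. A pass needed an adjusted p under 0.05 and an inclusion difference of at least 10 points in the same direction, a minimum that no listed event could miss. The test used the reads of the libraries on which the events were listed, and the adjustment covered the listed events alone. Its p-values therefore describe how far the read counts of these libraries lay apart and give no independent support. All 5 members passed, as did 86% of all listed events, so this share says nothing particular about the members. The deposited intervals of both libraries were apart in all 5, as in 83% of all events. The test compares 2 libraries and not the genotypes, and all intervals on reads cover counting error only. Over the whole table the wild-type library had 56927 reads and the deficient one 52735, and over the member events 5906 and 4608.

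**Figure D2:**
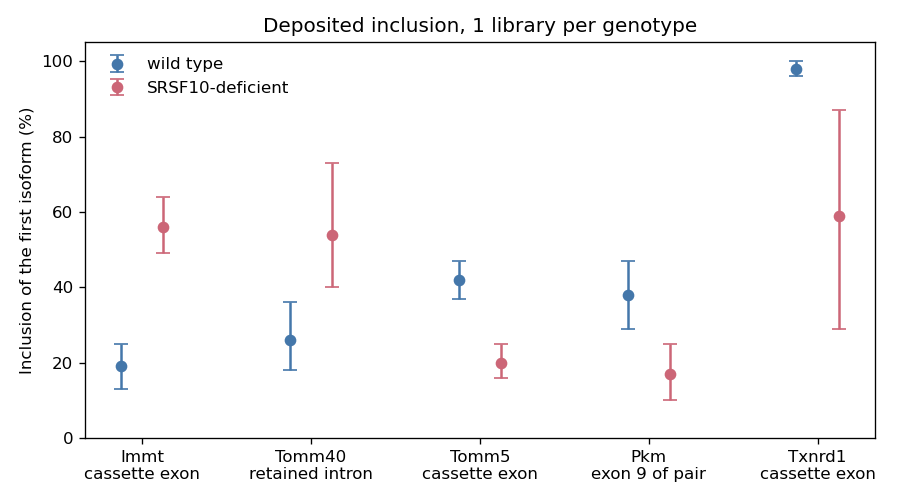
Deposited inclusion of the first isoform (%) in the wild-type (blue) and SRSF10-deficient (red) library, with points at the authors' posterior mean and bars for their interval. Immt and Tomm40 lie higher in the deficient library and Tomm5, Pkm and Txnrd1 lower, and the deficient Txnrd1 bar is the widest, from 29% to 87%.

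Immt was the member with the clearest gain. Its 96-nucleotide cassette exon (mm9 chromosome 6, 71803167 to 71803262, plus strand) is exon 6 of 15 in the principal GENCODE transcript and codes for protein. Its length equals 32 codons, so that inclusion keeps the reading frame. The 2 complete annotated proteins with the exon have 757 and 746 residues. A complete coding transcript without it gives 709 residues, and compared with the 746-residue form it also lacks an exon of 15 nucleotides. Another annotated transcript without the exon, with 488 residues, is classed under nonsense-mediated decay of the RNA. Inclusion was 19% (interval 13% to 25%) in the wild-type library and 56% (49% to 64%) in the deficient one, a rise of 37 points.

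The Immt reads moved on both sides of the choice. Reads that fit only the inclusion isoform numbered 28 in wild type and 108 in the deficient library, and those that fit only skipping 106 and 70. Inclusion thus made up 20.9% of the exclusive reads (exact 95% interval 14.4% to 28.8%) in wild type and 60.7% (53.1% to 67.9%) in the deficient library (adjusted p = 1.89e-11 by Fisher's exact test). With libraries scaled by the median ratio of reads over the table's genes, inclusion-only reads were 4.12 times as many in the deficient library (exact 95% interval 2.69 to 6.48). Skipping reads were 0.705 times as many (0.513 to 0.962). Reads that fit both isoforms numbered 10 and 17, and the 256 and 284 reads that fit neither were the largest class in each library. The upstream exon of the table has 594 nucleotides, against 138 in the principal transcript.

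Purines made up 61.5% of the Immt exon printed above, where runs such as AGGAAG and AGGAAAAG are capitalised. Among the 64 cassette exons of the table that could be placed in a GENCODE transcript, the median was 53.2% and the range 39.4% to 73.5%. The Immt exon ranked 11, the Txnrd1 exon 5 with 66.4% and the Tomm5 exon 24 with 56%. The longest purine run of the Immt exon had 8 nucleotides, beside a median of 7 and a highest of 24 over these cassette exons. Pkm exons 9 and 10, which are not cassette exons, had 50.3% and 47.9% purines. These shares and runs describe the letters and do not show binding by any protein.

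Tomm40 showed higher intron retention together with fewer reads. The 98-nucleotide intron (mm9 chromosome 7, 20300609 to 20300706, minus strand) lies in the 5′ UTR and ends 5 nucleotides before the start codon. The annotated protein has 361 residues whether the intron is spliced or kept. The GC content of the intron is 68.4%. Retention was 26% (18% to 36%) in wild type and 54% (40% to 73%) in the deficient library, 28 points higher.

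Intron reads of Tomm40 were level in number while spliced reads were fewer. Reads that fit only the retained isoform numbered 24 in each library, and reads that fit only the spliced isoform fell from 41 to 13. The retained share of exclusive reads was 36.9% (exact 95% interval 25.3% to 49.8%) and 64.9% (47.5% to 79.8%), and these intervals overlap (adjusted p = 0.0122 by Fisher's exact test). After scaling, retained-only reads were 1.07 times as many in the deficient library (0.58 to 1.96) and spliced-only reads 0.338 times as many (0.166 to 0.644). Reads that fit both numbered 12 of 158 in wild type. In the deficient library none of 71 did. With 3 reads taken as the upper limit of a count of 0, this allows a share of up to 4.23%, which is not an exact interval. An antisense gene, Gm20512, overlaps these exons in GENCODE M21. The sources used here do not say whether counting used the strand, so reads from it cannot be told apart.

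Tomm5 had a short exon whose sequence recurs in many other genes. The 50-nucleotide cassette exon (mm9 chromosome 4, 45119711 to 45119760, minus strand) shifts the frame near the end of a short protein. The annotated protein has 51 residues without the exon and 61 with it, sharing the first 40, so that the last 11 residues are replaced by 21 others. Inclusion was 42% (37% to 47%) in wild type and 20% (16% to 25%) in the deficient library, a difference of -22 points.

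The fall in Tomm5 came with fewer inclusion reads and no detectable loss of skipping reads. Inclusion-only reads numbered 175 in wild type and 71 in the deficient library, a scaled ratio of 0.433 (0.324 to 0.573). Skipping-only reads numbered 196 and 208, a scaled ratio of 1.13 (0.927 to 1.38). Reads that fit both isoforms were the largest class in each library, 330 and 448, a scaled ratio of 1.45 (1.25 to 1.67). Inclusion made up 47.2% of exclusive reads (exact 95% interval 42% to 52.4%) and then 25.4% (20.4% to 31%) (adjusted p = 1.65e-07 by Fisher's exact test). Only 36 and 34 reads fit neither isoform, 4.88% and 4.47% of all reads, beside medians of 47% and 49.4% over the events of the table.

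The letters of the Tomm5 exon resemble the B1 family of short interspersed repeats, which is common in mouse genes. Of its 35 words of 16 bases, 29 occurred in transcripts of another gene on either strand and 20 in at least 10 others. The most frequent word was found in 1162 other genes, among 55341 gene names searched. In the Immt exon 8 of 81 such words occurred elsewhere, none in more than 1 other gene. In the Pkm exons all 304 words occurred in Gm49759, which overlaps that event, and 161 of them in genes elsewhere, at most 9 genes for any word and 58 in all. The sources used here do not state how the authors counted reads that map to several places. The Tomm5 and Pkm exons shared more such words with other genes than the Immt exon, and the effect on read placement was not tested. The Tomm40 intron and the Txnrd1 exon were not searched for such words.

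In Pkm the M1 exon gave way to the M2 exon in the deficient library. Exon 9 (mm9 chromosome 9, 59522836 to 59523002, plus strand) gives the M1 form and exon 10 (59523375 to 59523540) the M2 form. Both annotated exons have 167 nucleotides and are 61.7% identical, differing at the 64 bases capitalised above, and the table's exon 10 is 1 nucleotide shorter. The annotated proteins have 531 residues each and differ at 22 of them, all between residues 389 and 433. Use of exon 9 was 38% (29% to 47%) in wild type and 17% (10% to 25%) in the deficient library, a difference of -21 points, so the M2 exon was the major one in both.

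The exclusive reads of Pkm were a small part of its coverage. Reads that fit only exon 9 numbered 42 in wild type and 17 in the deficient library, and reads that fit only exon 10 numbered 77 and 96. Exon 9 made up 35.3% (exact 95% interval 26.8% to 44.6%) and 15% (9.01% to 23%) of these (adjusted p = 0.00171 by Fisher's exact test). The scaled ratio was 0.432 (0.23 to 0.775) for exon 9 reads and 1.33 (0.975 to 1.82) for exon 10 reads. Against these stood 3104 and 2573 reads that fit both isoforms, more than in any other member. Gm49759, an annotated gene of uncertain status on the same strand, overlaps the event and shares all 16-base words of both exons. How reads were placed between the event and the genes elsewhere that share some of these words was not tested. The table's downstream exon has 669 nucleotides where the annotated one has 182.

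**Figure D3:**
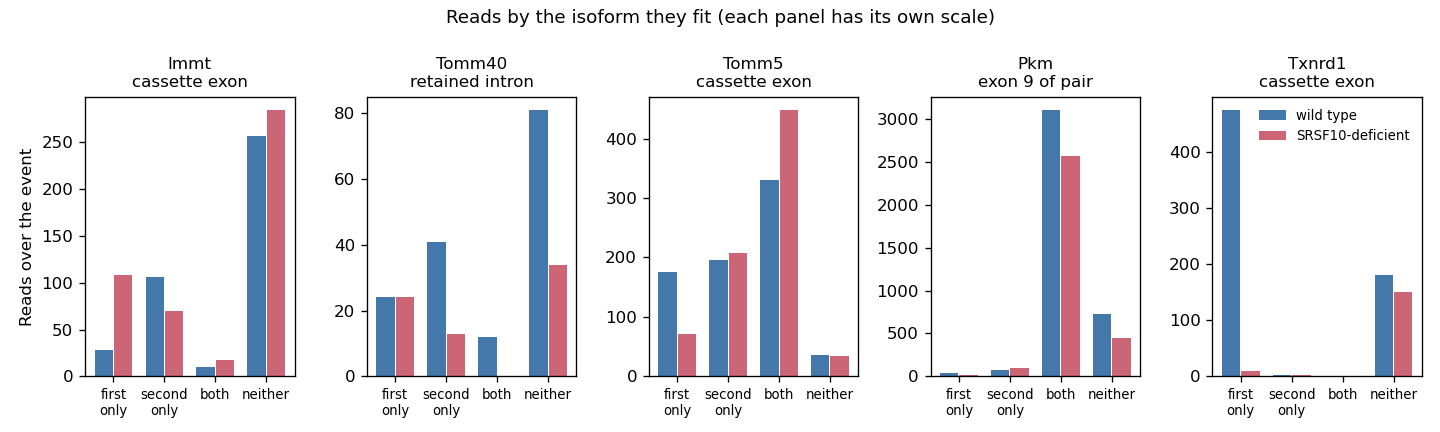
Reads over each event by the isoform they fit, in the wild-type (blue) and SRSF10-deficient (red) library, with bars starting at 0 and a scale of its own for each gene. Inclusion-only reads of Immt went from 28 to 108 and those of Txnrd1 from 474 to 9, while the Tomm40 intron had 24 in both libraries.

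Txnrd1 had far fewer reads that fit its event in the deficient library. Its 107-nucleotide cassette exon (mm9 chromosome 10, 82323269 to 82323375, plus strand) is exon 2 of 15 in its annotated transcript, lies in the 5′ UTR and ends 36 nucleotides before the start codon in the spliced transcript. The annotated protein has 499 residues with or without it. Inclusion-only reads numbered 474 in wild type and 9 in the deficient library, a scaled ratio of 0.0203 (exact 95% interval 0.00921 to 0.0388), or 49.4-fold fewer. This was the lowest such ratio among the 98 events with inclusion-only reads in wild type, where the second lowest was 0.107 and the median 1.01.

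Skipping-only reads of Txnrd1 numbered 3 and 2, too few to compare. No read fit both isoforms in either library (0 of 657 and 0 of 162). With the same upper limit of 3 reads, this allows up to 0.457% and 1.85%. The deposited inclusion of 98% (96% to 100%) and 59% (29% to 87%) therefore rested on 477 and 11 reads. In these reads inclusion made up 99.4% (exact 95% interval 98.2% to 99.9%) and 81.8% (48.2% to 97.7%) (adjusted p = 0.00742 by Fisher's exact test). These intervals were apart by a narrow margin, with bounds of 98.2% and 97.7%. The difference was -17.6 points in this share and -39 points in the deposited inclusion. With 11 exclusive reads the deficient library was the only one below 20 among the members.

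Reads of Txnrd1 that fit neither isoform held their number, 180 in wild type and 151 in the deficient library, a scaled ratio of 0.895 (0.716 to 1.12). Their share of all reads over the event went from 27.4% to 93.2%, the largest rise of any listed event at 65.8 points, followed by 30.7 points. Txnrd1 has 8 annotated transcripts with several first exons. In another transcript a first exon of 330 nucleotides starts 223 nucleotides upstream of the cassette exon and ends at its last base. A read within the 107 nucleotides fits the inclusion isoform whichever transcript it came from, so the inclusion-only reads do not separate these transcripts. Eid3 lies within the long downstream intron on the same strand, outside the exons of the event.

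**Figure D4:**
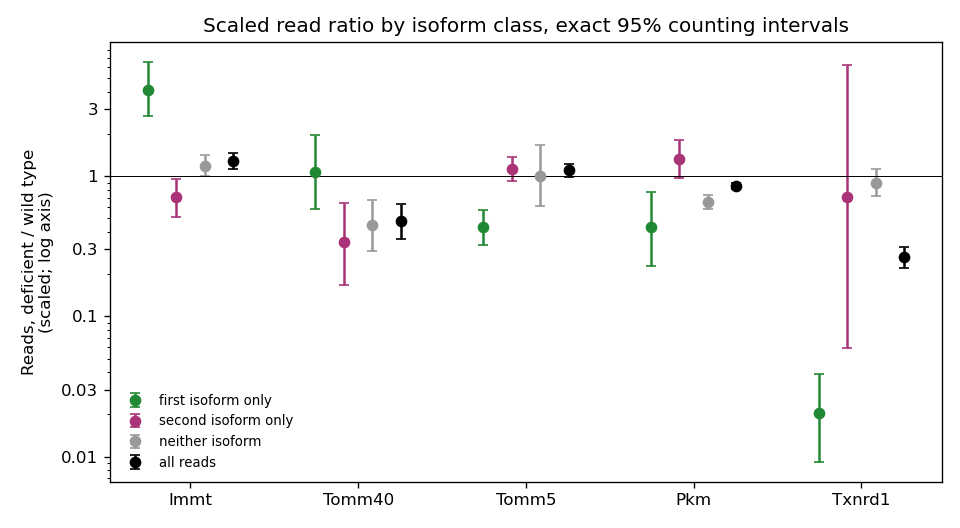
Reads in the deficient over the wild-type library after scaling, on a log axis, for reads of the first isoform only (green), the second only (purple), neither (grey) and all reads (black), with exact 95% counting intervals. The Txnrd1 first-isoform point lies at 0.0203 while its grey point lies at 0.895, and Immt is the only gene with a green interval wholly above 1.

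The number of all reads over an event, whatever isoform they fit, was called lower for Txnrd1 and Tomm40, though not in every class of reads. A ratio was called apart when its whole exact 95% interval lay beyond 1.5 times in either direction, that is above 1.5 or below 0.667. Txnrd1 had 657 and 162 reads, a scaled ratio of 0.263 (0.22 to 0.313) and the lowest of the 96 genes, where the second lowest was 0.388. The Txnrd1 call was carried by the inclusion-only reads: among reads that fit neither isoform the ratio was 0.895 (0.716 to 1.12), which is not called, and among reads that fit an isoform it was 0.0246 (0.0122 to 0.0444). Tomm40 had 158 and 71 reads, a scaled ratio of 0.479 (0.357 to 0.638). The Tomm40 ratio was similar among reads that fit neither isoform, 0.448 (0.291 to 0.676), and among those that fit an isoform, 0.513 (0.337 to 0.768). With these fewer reads both intervals crossed the limit of 0.667. By single class, spliced-only reads met the limit at 0.338 (0.166 to 0.644), as did reads that fit both, with 12 and 0 (interval 0 to 0.384). Retained-only reads did not, at 1.07 (0.58 to 1.96). Over all reads, these 2 of the 5 members were called lower, beside 7.29% of all genes of the table. No member was called higher, beside 2.08% of all genes.

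The other members differed less in total reads. Immt had 400 and 479 reads, a ratio of 1.28 (1.12 to 1.46). Tomm5 had 737 and 761, a ratio of 1.1 (0.994 to 1.22). Pkm had 3954 and 3135, a ratio of 0.846 (0.807 to 0.887). The middle part of the genes, between the quartiles, ran from 0.905 to 1.18. In these bulk libraries, fewer cells that express a gene and less RNA per cell cannot be told apart, and reads over 1 event are not the level of the gene.

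**Figure D5:**
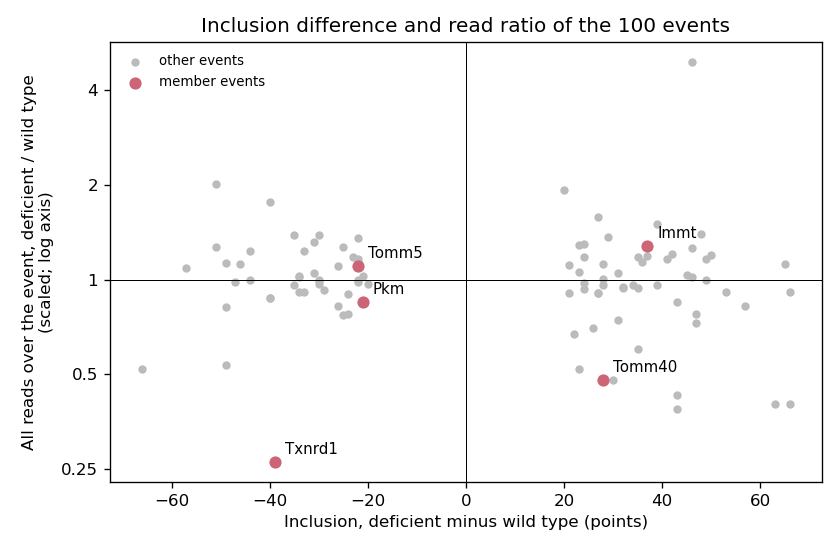
Inclusion difference (deficient minus wild type, percentage points) against the scaled ratio of all reads over the event (log axis) for the 100 listed events, with the 5 members in red. Txnrd1 is the lowest point at 0.263, and the gap around 0 on the horizontal axis reflects the listing at 20 points or more.

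The table was also searched for other genes of these pathways. Of 211 genes on 4 lists, 6 had a listed event, which were the 5 members and Acly. The share of all expressed genes that the authors listed is not known here, so these numbers say nothing particular about the pathways, and passing is read against the 86% of all listed events that passed. The list of mitochondrial import and cristae had 3 of 52 genes, of which 2 passed higher and 1 lower. The glycolysis and pyruvate list had 1 of 50 and the thioredoxin and glutathione list 1 of 51, both passing lower. Of 58 other mitochondrial and citrate-linked genes, 1 was listed and 0 passed by Fisher's exact test. This was Acly, whose enzyme makes cytosolic acetyl-CoA from citrate. It had 103 inclusion-only and 2 skipping-only reads in wild type, and all 11 exclusive reads fit inclusion in the deficient library (adjusted p = 1 by Fisher's exact test). Its deposited inclusion went the other way, from 84% (71% to 94%) to 18% (9% to 30%). Acly was also among the genes called lower in total reads, with 523 and 254 and a ratio of 0.518 (0.444 to 0.603).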

How the data were processed

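Per the labels' protocols, poly(A)-selected RNA gave paired-end libraries. The submitters' processing notes name TopHat and the mm9 build. The sources used here do not give the program that estimated inclusion, its settings or the rule for listing events. Per the file headers, the authors deposited for each event and library the inclusion fraction as a posterior mean and its bounds (written here as percent), a Bayes factor, which is a ratio and was not used, and counts of reads by isoform class. Sample 1 was read as wild type and sample 2 as deficient, from the labels' descriptions. Differences are deficient minus wild type.

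Computed here (Python 3.11.15, scipy 1.17.1, Biopython 1.88) were Fisher's exact tests over all 100 events with Benjamini-Hochberg adjustment, exact Clopper-Pearson intervals, and read ratios scaled by the median over genes (0.937), using the event with most reads per gene. The tests were tried on simulated data. All events of the member genes, and every list gene in the table, are named. Exons were placed in GENCODE M21 by exon and intron lengths, so no coordinate was converted. Members, lists and tests were chosen with earlier results of these data known, and ratios by read class after the reads were seen. Each genotype was 1 library, the median exclusive reads per event were 42 and 38, and alternatives changed the call rule, the share and the scaling.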

Additional observations from a re-analysis of the deposited data

How the results depend on the processing

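With inclusion reads of cassette exons divided by 2, and with non-overlap of the deposited intervals as the rule, 5 members passed. With a minimum of 20 exclusive reads in each library 4 did, without Txnrd1. A minimum difference of 30 points left 2 members (Immt and Txnrd1) and 51 events of the table, by its construction. Every inclusion difference of the members kept its direction in the exclusive reads and in the reads the authors assigned to the first isoform, the latter chosen after seeing the data. Ratios of all reads moved for Immt to 1.47 without reads that fit neither isoform and to 1.71 in reads that fit both, and for Tomm5 to 1.37 in the latter. For Pkm they moved to 0.793 without scaling, 0.907 without reads that fit neither and 0.651 in reads that fit neither, and for Txnrd1 to 0.0251 and 0.889 under the last 2 settings. Reads that fit neither were tried alone after seeing the data, and the cause was not tested. Settings on a part of the reads were scaled by their own median over genes. Reads that fit both gave no value for Tomm40 and Txnrd1, where a library had 0. A length-corrected share was not run, since the sources used here do not give the read length. No paired analysis was possible because each genotype had 1 library. Depth limits Txnrd1 inclusion in the deficient library, at 11 exclusive reads, and Tomm40, at 37.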
